A study of Mus musculus with 64 samples.

Results

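A set of 10 genes of the oligodendrocyte precursor and differentiation programme was followed through 2 brain regions, frontal cortex and hippocampus, in mice with the Arg87Cys change knocked into *Cyfip2* and in their wild-type littermates. The genes were *Pdgfra*, *Cspg4*, *Gpr17*, *Bcas1*, *Enpp6*, *Olig1*, *Olig2*, *Sox10*, *Myrf* and *Nkx2-2*. They were chosen by name, as the rows of the deposited table whose Ensembl identifier carries one of these symbols in the GENCODE annotation of GRCm38. All 10 listed genes were found among the 18432 genes of the table (for example *Pdgfra* as ENSMUSG00000029231, *Cspg4* as ENSMUSG00000032911, *Enpp6* as ENSMUSG00000038173 and *Olig1* as ENSMUSG00000046160), and all 10 passed the filter on low values in every comparison.

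The mice were on the C57BL/6N background and were studied at postnatal week (PWK) 1, 7, 14 and 28. Knock-in (KI) mice carried the Arg87Cys change in 1 copy of *Cyfip2*, the gene of a subunit of the actin-regulating WAVE complex, in all cells, and wild-type (WT) mice were their littermates, with both sexes used. No group received a treatment. Each of the 16 groups of genotype, region and age held 4 libraries, 1 from each of 4 mice, and the cortical and hippocampal libraries of a genotype and age came from the same animals, with tissue of the left and right side together. Values are normalized read counts, that is, estimated reads per gene scaled by the authors so that libraries are comparable.

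Oligodendrocytes, the myelin-forming cells of the brain, arise from precursor cells that spread through the tissue around birth and persist in the adult. Precursors carry the growth factor receptor encoded by *Pdgfra* and the surface proteoglycan NG2 encoded by *Cspg4*, committed precursors pass through a stage marked by *Gpr17*, and newly formed cells switch on *Bcas1*, *Enpp6* and *Myrf* before they make myelin. The transcription factors of *Olig1*, *Olig2*, *Sox10* and *Nkx2-2* act along the way. *Pdgfra* is also expressed by fibroblasts of the vessel wall and meninges, and *Cspg4* by pericytes, the contractile cells of capillaries. In whole tissue, fewer cells of the lineage and less RNA per cell cannot be told apart.

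Depth in reads is unknown, and library sums of the normalized counts ran from 29225576 to 32601227. Every library held transcripts of neurons, astrocytes, microglia and oligodendrocytes, and of 15 lists of pathway and marker genes the only member listed at 0 throughout a group was *Klk6*, a protease of mature oligodendrocytes, in 2 groups at PWK 1. The hippocampal library of KI replicate 1 at PWK 14 stood apart. Its genes deviated from their group means with an SD of 0.36 on the log2 scale, against 0.26 in the next library, which was the cortical library of KI replicate 1 at PWK 14, and 0.17 in the median library. Levels of marker lists are given as summed normalized counts beside results from the same libraries.

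The stretches before the start of *Pdgfra*, *Enpp6* and *Cspg4* are shown. *Pdgfra* was taken because it had the smallest adjusted p of the 10 genes from PWK 1 to 7 in both regions. *Cspg4* was taken because it was called lower in KI mice in cortex at PWK 14, and *Enpp6* because it was called higher in hippocampus at PWK 28. In each of these comparisons between genotypes the estimates of *Cspg4* and *Enpp6* had the same sign. In cortex at PWK 14 the estimate of *Enpp6* was -0.091. Without KI replicate 1 it was 0.15, while that of *Cspg4* was -0.38. The stretches come from the RefSeq promoter table of GRCm38.p6, which held entries for 5 of the 10 genes, and were ended before the annotated gene start. All lie on the plus strand, *Pdgfra* at chr5:75152001-75152250, *Enpp6* at chr8:46986637-46986886 and *Cspg4* at chr9:56864854-56865032. Capitals mark matches to 2 short motifs searched on both strands, the E-box CANNTG read by basic helix-loop-helix factors such as *Olig1* and *Olig2*, and the SOX core ACAAAG or ACAATG read by factors such as *Sox10*.
Pdgfra: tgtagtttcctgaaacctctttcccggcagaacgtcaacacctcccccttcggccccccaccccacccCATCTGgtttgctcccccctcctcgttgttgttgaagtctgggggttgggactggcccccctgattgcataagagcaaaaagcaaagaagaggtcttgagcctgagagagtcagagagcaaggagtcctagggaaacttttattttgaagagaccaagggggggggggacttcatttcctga
Enpp6: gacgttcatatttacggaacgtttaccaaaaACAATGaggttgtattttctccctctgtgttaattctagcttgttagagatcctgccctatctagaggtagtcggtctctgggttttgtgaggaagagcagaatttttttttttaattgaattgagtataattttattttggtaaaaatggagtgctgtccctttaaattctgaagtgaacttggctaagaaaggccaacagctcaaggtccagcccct
Cspg4: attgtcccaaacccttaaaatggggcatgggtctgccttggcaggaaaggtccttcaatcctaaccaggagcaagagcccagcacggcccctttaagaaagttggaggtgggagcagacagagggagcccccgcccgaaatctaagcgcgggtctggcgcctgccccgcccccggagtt
The *Pdgfra* stretch of 250 bases held 1 E-box and no SOX core, and the *Enpp6* stretch of 250 bases held 1 SOX core and no E-box. The 179 bases before *Cspg4* held neither. Of all 32851 windows of 250 bases in the table, 66.2% held an E-box and 25.2% a SOX core, and of windows of 179 bases the shares were 55.3% and 19.1%. The 2 motifs can overlap, but no stretch held both.

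Read counts depend on exon length, so levels were compared between genes per kilobase of exon. In WT cortex at PWK 1, *Olig1* was highest at 1479 ± 69.1 normalized counts per kb (SD, n = 4), followed by *Gpr17* at 833 ± 165. *Olig2*, *Pdgfra* and *Bcas1* came next, at 430.4, 415 and 323 per kb, and each of these overlapped the next gene in the order. *Sox10* stood at 261 and *Cspg4* at 113 per kb. *Nkx2-2*, *Enpp6* and *Myrf* were lowest, at 52.5, 47.7 and 34.3 per kb, with overlapping ranges. By PWK 28 the order had *Bcas1* first at 987 ± 203 per kb, overlapping *Olig1* at 919 ± 36.9. *Myrf* had moved from the last to the seventh place at 186 per kb, and *Nkx2-2* was last at 22.4. In hippocampus *Olig1* at 1591 and *Gpr17* at 882 per kb led at PWK 1, and *Bcas1* at 1099.9 and *Olig1* at 1035 per kb at PWK 28, where these last overlapped.

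**Figure D1:**
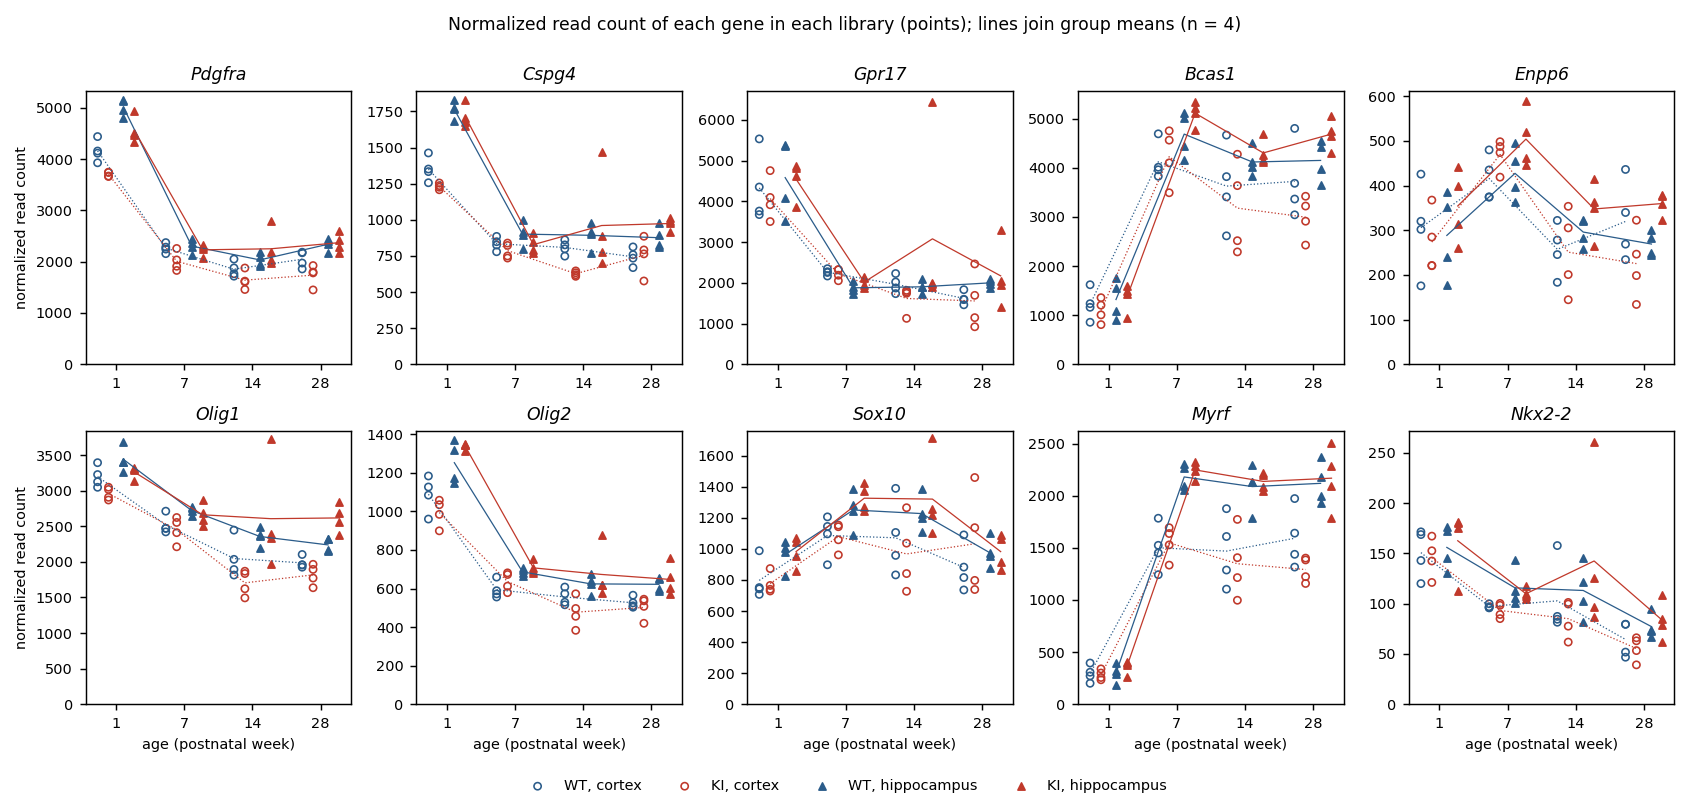
Normalized read count (y axis) against age in postnatal weeks (x axis) for each of the 10 genes. Points are single libraries, open circles for cortex and filled triangles for hippocampus, in blue for WT and red for KI, and lines join the means of 4 libraries. Pdgfra, Cspg4, Gpr17 and Olig2 are highest at PWK 1, Bcas1 and Myrf are lowest there, and 1 hippocampal KI library at PWK 14 reaches 6438 for Gpr17.

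Between PWK 1 and 7 the programme turned over in WT mice. In cortex 9 of the 10 genes were called by limma, 6 lower and 3 higher at PWK 7, where 65.5% of all genes were called. In hippocampus all 10 were called, 6 lower and 4 higher, against 62.2% of all genes. The median log2 difference of the genes was -0.48 in cortex and -0.38 in hippocampus, beside 0.013 over all genes in each region.

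The precursor genes fell. *Pdgfra*, at chromosome 5 from 75152292 to 75198215, stood at 4158, 4116, 3929 and 4439.9 normalized counts in the 4 WT cortical libraries at PWK 1 and at 2157, 2372, 2283 and 2246 at PWK 7. The groups were far apart, and the log2 difference was -0.88 (SE 0.062, limma adjusted p = 6.00e-10). In hippocampus *Pdgfra* fell from 4953, 4795, 5139 and 5150.2 to 2288, 2126, 2446 and 2358, a log2 difference of -1.12 (adjusted p = 5.60e-12). *Cspg4*, at chromosome 9 from 56865033 to 56899870, fell by 0.69 in cortex, from 1351 ± 85.1 to 834 ± 44.4 (SD, n = 4), and by 0.97 in hippocampus, from 1764 ± 60.1 to 901 ± 80.8 (SD, n = 4). *Gpr17*, which encodes a G protein-coupled receptor and lies on chromosome 18 from 31942997 to 31949636, stood at 5531, 3759.7, 4349.6 and 3673 in cortex at PWK 1 and at 2252, 2345, 2165 and 2270.5 at PWK 7. Its libraries lay closer together at PWK 7, and the groups did not overlap in either region, with log2 differences of -0.92 in cortex and -1.27 in hippocampus.

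Of the genes of newly formed oligodendrocytes, *Myrf* and *Bcas1* rose over the same interval in both regions and *Enpp6* in hippocampus. *Myrf*, at chromosome 19 from 10208272 to 10240748, encodes a membrane-bound factor that switches on myelin genes, and it stood at 395, 201, 272 and 307 in WT cortex at PWK 1 and at 1242, 1784, 1524 and 1451 at PWK 7. In hippocampus it stood at 319.8, 288, 397 and 189 and then at 2306, 2053, 2094 and 2267. No library of one age reached the other, and the log2 difference was 2.38 (SE 0.18) in cortex and 2.91 (SE 0.15) in hippocampus. *Bcas1*, at chromosome 2 from 170346991 to 170427845, rose by 1.79 in cortex, from 1218 ± 314 to 4125 ± 387 (SD, n = 4), and by 1.88 in hippocampus. *Enpp6*, at chromosome 8 from 46986887 to 47096762, encodes a choline phosphodiesterase of newly formed cells, and it stood at 426, 175, 302 and 320.0 in cortex at PWK 1 and at 374, 479.7, 435 and 375 at PWK 7. These cortical groups overlapped, and the log2 difference of 0.50 was not called (adjusted p = 0.0624), although it was called without WT replicate 1 of PWK 1 (adjusted p = 0.0132). In hippocampus *Enpp6* rose by 0.62 (adjusted p = 0.00726). The groups overlapped there too, with a highest value of 384.7 at PWK 1 and a lowest of 363.6 at PWK 7.

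The transcription factors divided. *Olig2*, at chromosome 16 from 91225457 to 91228677, fell by 0.87 in cortex and 0.86 in hippocampus, from 1089 ± 94.8 to 594 ± 45.5 in cortex (SD, n = 4). Its neighbour *Olig1*, at chromosome 16 from 91269772 to 91271933, fell by 0.34 in each region, from 3199 ± 149 to 2519 ± 131 in cortex (SD, n = 4). *Sox10*, at chromosome 15 from 79154908 to 79165240, which is kept on from precursor to mature cell, rose by 0.45 in cortex and 0.38 in hippocampus. *Nkx2-2*, at chromosome 2 from 147177546 to 147194243, fell by 0.61 in cortex and by 0.43 in hippocampus. The hippocampal fall of *Nkx2-2* (adjusted p = 0.0386) was not called without WT replicate 1 or 2 of PWK 1, or without WT replicate 1, 2 or 3 of PWK 7, where the adjusted p reached 0.104, nor in 1 fit of all 64 libraries (adjusted p = 0.0944).

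**Figure D2:**
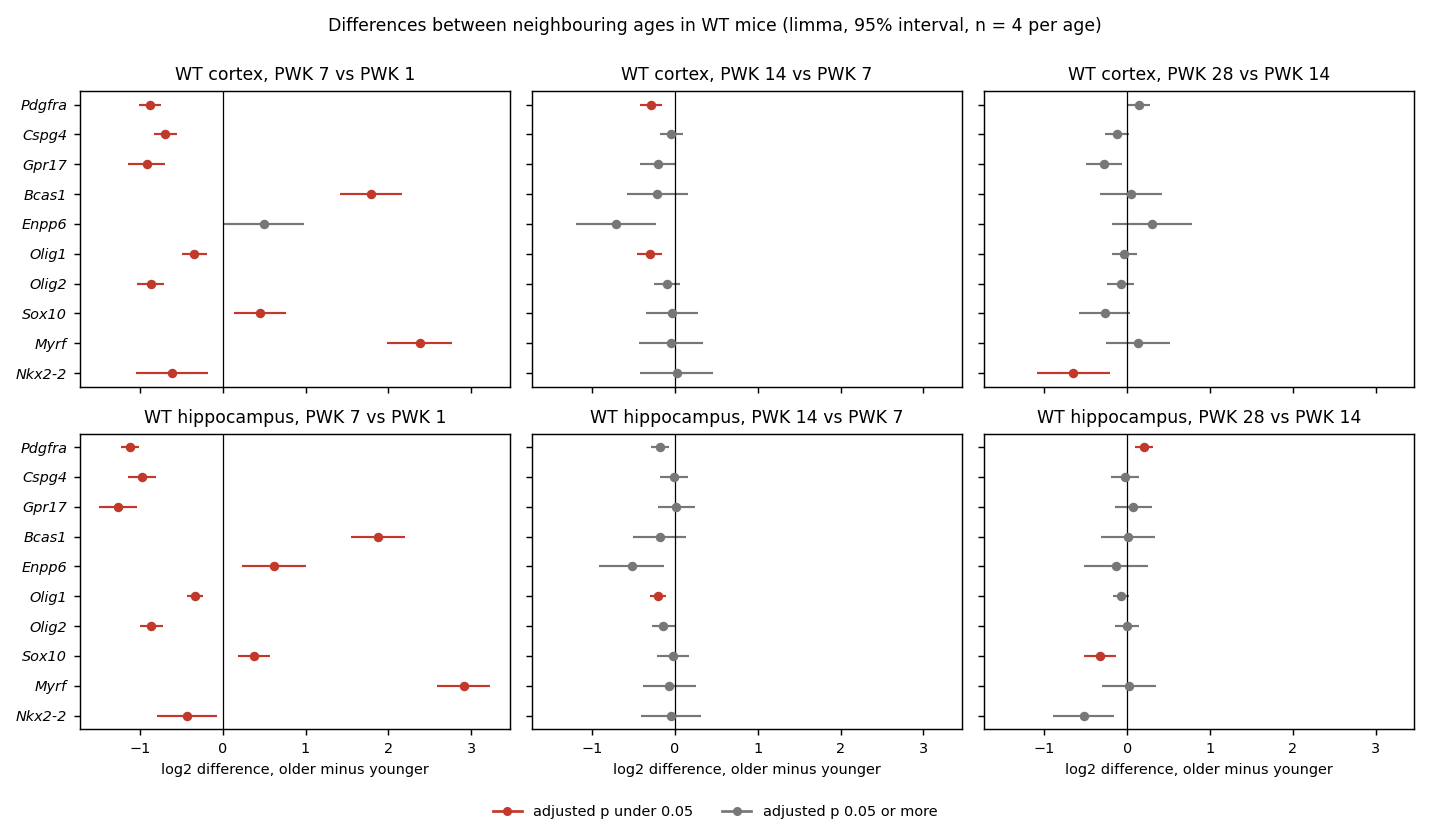
Log2 difference between neighbouring ages in WT mice (x axis, older minus younger) for each gene (y axis), with 95% intervals from limma and 4 libraries per age. Red marks genes with an adjusted p under 0.05. The step from PWK 1 to 7 holds 9 of 10 calls in cortex and 10 of 10 in hippocampus, with Myrf farthest to the right at 2.38 and 2.91, and the later steps hold 1 or 2 calls each.

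Later steps held fewer calls. From PWK 7 to 14 in WT cortex, *Pdgfra* fell by 0.29 (adjusted p = 0.00961) and *Olig1* by 0.31 (adjusted p = 0.0172), 2 of 10 genes beside 5.31% of all genes. *Olig1* was not called without WT replicate 1 or 2 of PWK 14 or WT replicate 2 of PWK 7 (adjusted p up to 0.0667). In hippocampus *Olig1* alone of the 10 genes was called, with a fall of 0.21 (adjusted p = 0.0136) beside 5.57% of all genes. In 1 fit of all 64 libraries *Olig1* was called in neither region (adjusted p = 0.0513 in cortex and 0.257 in hippocampus). *Enpp6* had log2 differences of -0.71 in cortex and -0.52 in hippocampus at this step, with no overlap between ages, and neither passed the threshold (adjusted p = 0.0793 and 0.109).

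From PWK 14 to 28, *Nkx2-2* fell by 0.65 in WT cortex, 1 of 10 genes beside 15.3% of all genes. Its 4 values were 81.6, 84.6, 87.4 and 158 at PWK 14 and 46.8, 51.9, 79.5 and 79.6 at PWK 28, close at their edges, with replicate 4 of PWK 14 far above the rest. The call (adjusted p = 0.0436) was lost without WT replicate 3 or 4 of PWK 14 or WT replicate 1 or 2 of PWK 28, where the adjusted p reached 0.151, and under 4 other settings (adjusted p from 0.0503 to 0.0993). In WT hippocampus *Pdgfra* rose by 0.20 (adjusted p = 0.0199) and *Sox10* fell by 0.33 (adjusted p = 0.0252), 2 of 10 genes beside 11.6% of all genes. *Pdgfra* lost its call without WT replicate 2 or 4 of PWK 14 or WT replicate 3 or 4 of PWK 28 (adjusted p up to 0.0698), and *Sox10* without WT replicate 1 or 4 of PWK 14 or WT replicate 1, 3 or 4 of PWK 28 (adjusted p up to 0.0839). In 1 fit of all 64 libraries neither was called (adjusted p = 0.108 and 0.195), and the correction for GC content and length moved *Sox10* to -0.18 (adjusted p = 0.295).

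Other genes of the lineage, from lists of which the 10 genes are not part, were also called from PWK 1 to 7. Of all genes 65.5% were called in cortex and 62.2% in hippocampus, in either direction. Of 15 further precursor markers, 13 fell and 2 rose in cortex, with the largest falls in *Cacng4* (-2.23), *Ednrb* (-1.72) and *Vcan* (-1.62), and 13 fell and 1 rose in hippocampus. The 2 that rose in cortex were *Megf11* (1.51) and *Neu4* (0.73), and *Neu4* was also the one that rose in hippocampus (0.56). Of 15 genes of committed and newly formed cells, 7 rose and 4 fell in cortex and 5 rose and 5 fell in hippocampus, with no common direction. The rises were led by the homeobox gene *Nkx6-2* (5.95 and 6.68) and by *Ugt8a* (2.24 and 2.57), which makes myelin galactolipids. All 15 genes of mature oligodendrocytes rose in both regions, led by *Mal* (6.73), *Opalin* (6.67) and *Mog* (5.55) in cortex and by *Opalin* (7.64), *Mobp* (7.61) and *Mog* (7.22) in hippocampus. All 5 markers of dividing cells fell in both regions, with medians of -2.81 and -3.34.

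Between regions, 9 of the 10 estimates lay higher in WT hippocampus than in WT cortex at each age, but at most 3 were called before PWK 28. Libraries were treated as independent here, although the regions came from the same mice. At PWK 1, *Pdgfra* was higher by 0.27 (adjusted p = 0.000858) and *Cspg4* by 0.39 (adjusted p = 0.000198), 2 of 10 genes beside 34.7% of all genes. *Cspg4* stood at 1769, 1685, 1831 and 1772 in hippocampus and at 1462, 1333, 1351 and 1256 in cortex, without overlap. The summed counts of 6 pericyte genes were 9116 to 10410.1 in hippocampus and 8274 to 9110.2 in cortex at that age, and those of 6 fibroblast genes were 8054 to 12209 and 3561 to 5566; their part in the differences of *Cspg4* and *Pdgfra* was not tested.

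At PWK 7, *Myrf* was higher in hippocampus by 0.55 and *Olig2* by 0.21, and *Gpr17* was lower, with a log2 difference of -0.27, 3 of 10 genes beside 40.8% of all genes. *Gpr17* stood at 2052, 1734, 1834 and 1885 in hippocampus and 2252, 2345, 2165 and 2270.5 in cortex, a narrow gap without overlap. *Olig2* (adjusted p = 0.0221) lost its call without WT cortical replicate 1, 3 or 4 or WT hippocampal replicate 1 or 4 (adjusted p up to 0.0653). At PWK 14 the only call was *Myrf*, higher by 0.53, 1 of 10 genes beside 34.6% of all genes. At PWK 28, 6 of 10 genes were higher in hippocampus, beside 37.8% of all genes called in either direction. These were *Myrf* (0.42), *Gpr17* (0.31), *Cspg4* (0.24), *Olig2* (0.24), *Pdgfra* (0.19) and *Olig1* (0.17). *Gpr17*, *Olig1* and *Olig2* did not overlap between the regions, while *Pdgfra*, *Cspg4* and *Myrf* did. *Pdgfra* lost its call without WT cortical replicate 3 or 4 or WT hippocampal replicate 1, 3 or 4 (adjusted p up to 0.0755), and *Cspg4* without WT cortical replicate 2, 3 or 4 or WT hippocampal replicate 2 or 3 (adjusted p up to 0.0915). In 1 fit of all 64 libraries *Gpr17* was called neither at PWK 7 (adjusted p = 0.373) nor at PWK 28 (adjusted p = 0.314), *Olig2* was not called at PWK 7, and *Cspg4* and *Olig1* were not called at PWK 28 (adjusted p = 0.0777, 0.0935 and 0.148). With the replicate number as a block *Pdgfra* was not called at PWK 28 (adjusted p = 0.0565).

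Between genotypes, none of the 10 genes was called at PWK 1 or 7. In cortex the limma counts of 0 stood beside 0.00546% of all genes at PWK 1 and 0.00545% at PWK 7, and in hippocampus beside 0.0109% and 0.0218%. At an unadjusted p under 0.05, limma counted 3 and 1 of the 10 genes in cortex and 1 and 0 in hippocampus. Over all genes the counts were 965 of 18311 and 1477 of 18358 in cortex, and 1003 of 18361 and 1144 of 18390 in hippocampus. The smallest unadjusted p in cortex at PWK 1 was that of *Pdgfra*, at 3740.0, 3745, 3670.0 and 3662 in KI and 4158, 4116, 3929 and 4439.9 in WT mice. These groups did not overlap, but the log2 difference of -0.17 had an adjusted p of 0.908. *Pdgfra* was also the gene with an unadjusted p under 0.05 in hippocampus at PWK 1, with -0.14 (95% interval -0.24 to -0.039), and in cortex at PWK 7, with -0.18 (95% interval -0.31 to -0.043), and neither passed the threshold (adjusted p = 0.867 and 0.466).

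**Figure D3:**
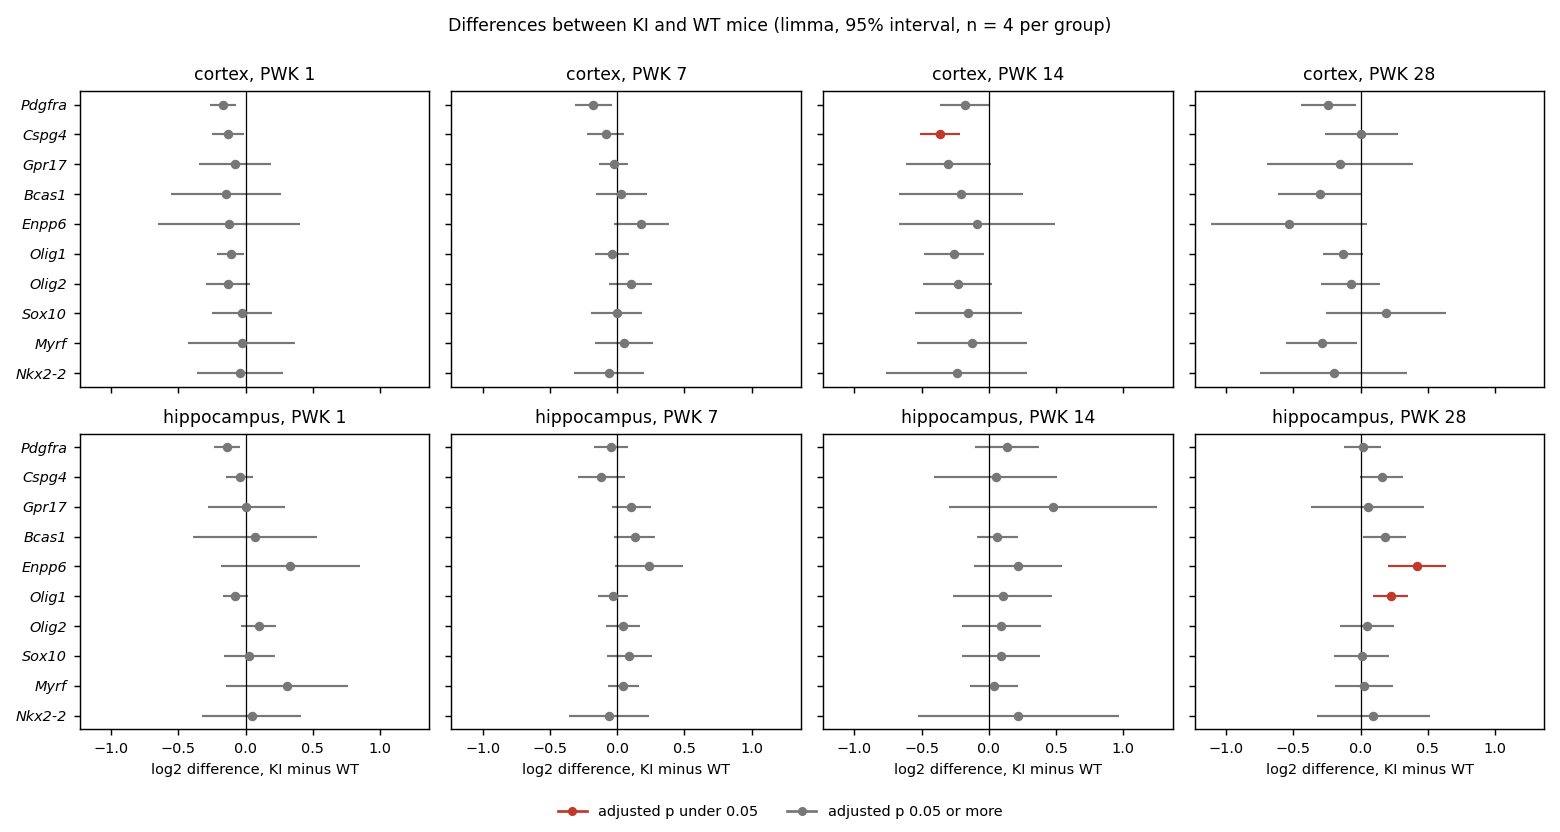
Log2 difference between KI and WT mice (x axis, KI minus WT) for each gene (y axis) in each region and age, with 95% intervals from limma and 4 libraries per group. Red marks an adjusted p under 0.05, reached by Cspg4 in cortex at PWK 14 (-0.37) and by Enpp6 (0.42) and Olig1 (0.22) in hippocampus at PWK 28.

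In cortex at PWK 14 the proteoglycan gene *Cspg4* was lower in KI mice, 1 of 10 genes beside 5.18% of all genes. It stood at 646, 609, 619.7 and 633 in the KI libraries and at 799, 748, 826 and 861 in the WT libraries. The highest KI value lay below the lowest WT value, and the log2 difference was -0.37 (SE 0.067, 95% interval -0.51 to -0.22, adjusted p = 0.0132). The call held without each single library, with an adjusted p of up to 0.0454. The precursor receptor *Pdgfra* had a log2 difference of -0.18 (95% interval -0.36 to 0.0068) and was not called. The 10 genes had a median log2 difference of -0.22, beside -0.0018 over all genes, and all 10 values were negative, but *Enpp6* and *Myrf* turned positive, at 0.15 and 0.0076, and the median was -0.12, without KI replicate 1, the library with the lowest KI value of 8 of the 10 genes.

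Genes of vessel-wall cells, some of which also express *Cspg4* or *Pdgfra*, differed in level at this age and region. The summed counts of 6 pericyte genes were 4094 to 4728 in KI and 4743 to 5556 in WT libraries, and none of these 6 genes was called, with a median log2 difference of -0.24. The summed counts of 5 endothelial genes were 2948 to 3396 and 4114 to 4405, and *Cldn5*, a tight junction gene, fell by 0.64 and *Flt1*, a receptor for vascular growth factor, by 0.51. Both sums were lower in every KI library than in every WT library. The 6 fibroblast genes summed to 1792 to 4104 in KI and 1218 to 1926 in WT libraries, which overlapped, and 3 of them rose, *Lum*, *Col1a1* and *Dcn*. The part of these cells in the difference of *Cspg4* was not tested. Of the 15 further precursor markers, *Pcdh15*, a cadherin, rose by 0.71 and *Cspg5*, another proteoglycan, fell by 0.38, and the median was 0.011, beside 5.18% of all genes called.

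In hippocampus at PWK 14 none of the 10 genes was called, beside 15.6% of all genes. None of them had an unadjusted p under 0.05 with limma, beside 5780 of all 18405 genes tested. All 10 log2 differences were positive, with a median of 0.098 beside 0.006 over all genes, but without KI replicate 1 only 5 were positive and the median was -0.0084. *Gpr17* stood at 6438, 1893, 1974 and 2006 in KI replicates 1 to 4 and at 1887, 1891, 1729.6 and 2094 in the WT libraries. Replicate 1 thus lay 3.39-fold above the WT mean while the other 3 KI libraries lay within the WT range. The log2 difference of *Gpr17* was 0.48 (95% interval -0.30 to 1.25) with this library and 0.046 without it.

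The same library was the highest of its group for 6 further genes. It held 1470.2 normalized counts of *Cspg4*, where the other KI libraries held 703 to 889, and 261 of *Nkx2-2*, where the others held 87.0 to 125. It also had the highest *Pdgfra* (2799), *Olig1* (3732), *Olig2* (879) and *Sox10* (1711) of the 4 KI libraries. Among the 10 genes, those of newly formed cells were not raised in it, with a ratio to the WT mean of 1.00 for *Bcas1*, 0.894 for *Enpp6* and 0.982 for *Myrf*. The 15 further genes of committed and newly formed cells summed to 24226 there, against 21811 to 23944 in the other KI and 20572 to 22370 in the WT libraries. The 15 further precursor markers summed to 43949, against 30780 to 32093 in the other KI libraries. Without this library, *Cspg4*, *Olig1*, *Olig2*, *Sox10* and *Nkx2-2* had negative log2 differences between -0.18 and -0.042, and *Enpp6* had 0.34 (adjusted p = 0.0696). No gene of the 10 was called either way.

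**Figure D4:**
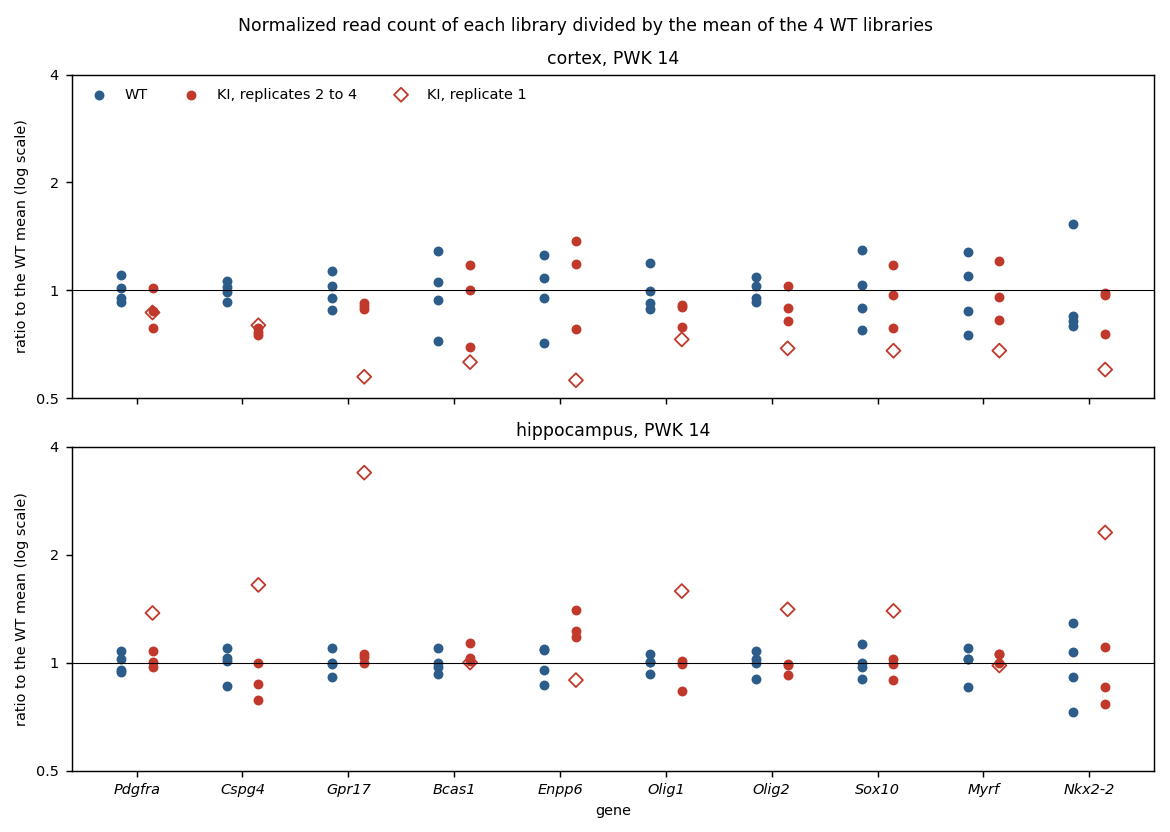
Normalized count of each library at PWK 14 divided by the mean of the 4 WT libraries (y axis, log scale) for each gene (x axis), in cortex (top) and hippocampus (bottom). Blue points are WT libraries, red points KI replicates 2 to 4 and open red diamonds KI replicate 1. In hippocampus the diamond lies at 3.39 for Gpr17 and 2.31 for Nkx2-2 and near 1 for Bcas1 and Myrf, while in cortex it lies at 0.574 for Gpr17.

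Markers of some other cells were also high in that library. Summed over 5 markers of dividing cells it held 3384 normalized counts, where replicates 2, 3 and 4 held at most 290. Its 6 microglial genes summed to 22194, against 8836 to 12742 in the others, its 6 astrocyte genes to 309747, against 208529 to 217873, and its 6 pericyte genes to 9111, against 5518 to 5934. The 15 genes of mature oligodendrocytes summed to 107306 there, against 149951 to 175525, and the 5 choroid plexus genes to 1906, against 18064 to 99152. The part of these cells in its values for the 10 genes was not tested. In the cortical library of KI replicate 1 at PWK 14, *Gpr17* went the other way, with 1126, where the other KI libraries held 1741 to 1813. The mature oligodendrocyte genes of that library summed to 79868, against 102765 to 169329. This sum was the lowest of its group, as in hippocampus. Choroid plexus genes also differed widely within other hippocampal groups. In WT replicates 1 to 4 of PWK 14 they summed to 2265, 18231, 105181 and 2054. At PWK 28 the sums were 60691 to 104073 in KI and 36905 to 125235 in WT hippocampus. The part of choroid plexus tissue in the hippocampal comparisons was not tested.

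In cortex at PWK 28, where 22.2% of all genes were called, none of the 10 genes was called by limma. Over all genes 6530 of 18387 had an unadjusted p under 0.05, and of the 10 genes 2 had. These were *Pdgfra*, with a log2 difference of -0.24 (95% interval -0.45 to -0.036, adjusted p = 0.0887), and *Myrf*, with -0.29 (95% interval -0.55 to -0.025, adjusted p = 0.11). *Pdgfra* stood at 1797, 1925, 1781 and 1449.5 in KI and 2174, 2184, 1974 and 1858 in WT libraries, which overlapped, and it was called without KI replicate 2 (adjusted p = 0.0407). It was also called with total-sum scaling, in 1 fit of all 64 libraries and with a replicate block. Across all fits its adjusted p from limma ran from 0.0138 to 0.199. *Enpp6* had the lowest estimate, -0.53, with a wide interval of -1.12 to 0.048. Its values were 246, 198, 322 and 134 in KI and 436, 339.6, 234 and 269 in WT libraries, and the groups overlapped. The 10 genes had a median of -0.18, beside -0.0034 over all genes, and 8 were negative.

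In hippocampus at PWK 28, *Enpp6* and *Olig1* were higher in KI mice, 2 of 10 genes beside 15.8% of all genes. *Enpp6* stood at 376, 323, 379.7 and 359.7 in KI and 248, 301, 244 and 283 in WT libraries, with every KI value above every WT value. Its log2 difference was 0.42 (SE 0.099, 95% interval 0.20 to 0.64, adjusted p = 0.0154), and it was not called without WT replicate 1 (adjusted p = 0.0514). *Olig1* stood at 2558, 2379, 2840.1 and 2693 in KI and 2172, 2316, 2316 and 2149.7 in WT libraries, again without overlap. Its log2 difference was 0.22 (SE 0.06, 95% interval 0.092 to 0.35, adjusted p = 0.0272), and it was not called without KI replicate 3 or 4 or WT replicate 1 or 4 (adjusted p up to 0.0806). All 10 log2 differences were positive, with a median of 0.074 beside 0.0037 over all genes, and leaving out single libraries left between 7 and 10 of them positive. In 1 fit of all 64 libraries neither gene was called (adjusted p = 0.23 for *Enpp6* and 0.0879 for *Olig1*).

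Summed counts of microglial and astrocyte genes were also higher in KI mice there. The mature oligodendrocyte genes summed to 153587 to 206388 in KI and 140776 to 170993 in WT libraries, which overlapped. Of these 15 genes 3 rose, beside 15.8% of all genes called in either direction. They were the protease *Klk6* (1.56), the tight junction gene *Cldn11* (0.34) and the myelin gene *Mobp* (0.32). The 6 microglial genes summed to 11673 to 13148 in KI and 9579.7 to 10489 in WT libraries and the 6 astrocyte genes to 191564 to 222642 and 138137 to 147534, both without overlap. Their part in the differences of *Enpp6* and *Olig1* was not tested.

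*Gpr17* varied widely among KI mice at PWK 28 and its difference in mean was not called. Its values were 920.2, 1144, 1691 and 2462 in KI cortex and 1407, 2048, 1933 and 3289.8 in KI hippocampus, and 1830.1, 1595, 1459 and 1586 and 2048, 2086, 1880.5 and 1975 in the WT libraries. The values are given from replicate 1 to 4, and KI replicate 1 was lowest and KI replicate 4 highest in both regions, although the labels do not say that equal numbers mark 1 mouse. The log2 difference was -0.16 (95% interval -0.70 to 0.39) in cortex and 0.052 (95% interval -0.37 to 0.47) in hippocampus, with neither called. Whether the spread itself differed between genotypes was not tested.

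The difference between regions in the KI effect was tested directly. Libraries were again treated as independent, although the regions came from the same mice. At PWK 28 the effect on *Olig1* was higher in hippocampus than in cortex by 0.35 (SE 0.09, 95% interval 0.16 to 0.54, adjusted p = 0.0328), 1 of 10 genes beside 4.57% of all genes. In cortex its log2 difference was -0.13, with KI values of 1895, 1773, 1966 and 1637 and WT values of 2104, 1959, 1926 and 1958. This call was lost without any of 7 single libraries, namely KI cortical replicate 4, WT cortical replicates 1 and 4, KI hippocampal replicates 3 and 4, and WT hippocampal replicates 1 and 4 (adjusted p up to 0.0716), and in 1 fit of all 64 libraries (adjusted p = 0.0902). *Enpp6* had the highest estimate, 0.95 (95% interval 0.31 to 1.59), which was not called (adjusted p = 0.0863) except without KI cortical replicate 3 (adjusted p = 0.0286). At PWK 14 none of the 10 genes was called beside 2.85% of all genes. With limma 1 of them, *Pdgfra*, had an unadjusted p under 0.05, beside 3257 of all 18424 genes tested. All 10 estimates were positive, with a median of 0.32, as they were without either library of KI replicate 1. Without hippocampal KI replicate 1 the median was 0.19 and without cortical KI replicate 1 it was 0.26, and the unadjusted p of *Pdgfra* was 0.0912 and 0.063, with no gene of the 10 under 0.05.

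The difference between ages in the KI effect was not called for any of the 10 genes. Between PWK 14 and 28 limma called 0 of 10 genes in cortex and 0 in hippocampus, where it called 0% and 0% of all genes. At an unadjusted p under 0.05 it counted 1 and 0 of the 10, beside 2770 of all 18398 and 2274 of all 18411 genes tested. *Cspg4* in cortex had the smallest unadjusted p of the 10, with 0.37 (95% interval 0.068 to 0.68, adjusted p = 0.237). Without KI replicate 1 of PWK 14, limma called 503 genes in cortex and 1 in hippocampus, and none of the 10. These interactions use the same libraries as the comparisons within each age and are not further evidence for them.

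Further precursor markers were called between genotypes at the later ages, mostly higher in KI mice. In hippocampus 5 of 15 rose and none fell at PWK 14, and 6 rose and none fell at PWK 28, with medians of 0.46 and 0.27, beside 15.6% and 15.8% of all genes called in either direction. *Megf11*, a gene of the multiple EGF-like domain family, rose by 2.22 and 1.40, and *Pcdh15* by 0.84 and 0.57. The endothelin receptor gene *Ednrb*, which astrocytes also express, rose by 0.57 at PWK 14, and the matrix proteoglycan gene *Vcan* by 0.71 at PWK 28. In cortex at PWK 28, 6 rose, led by *Megf11* (1.09), *Pcdh15* (0.79) and *Sox5* (0.60), and *Cspg5* fell by 0.23, with a median of 0.18, beside 22.2% of all genes called. Without KI replicate 1 at PWK 14 the hippocampal count was 5 higher and 1 lower, the transcription factor gene *Sox6*, and the median was 0.26, beside 17.4% of all genes called. The 6 astrocyte genes summed to 208529 to 309747 in KI and 136778 to 163258 in WT hippocampus at PWK 14, without overlap, and in cortex at PWK 28 to 136193 to 155958 and 126845 to 151184, which overlapped. Their part in the rise of these markers was not tested.

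Of 15 genes of committed and newly formed cells, 2 rose in hippocampus at PWK 14, beside 15.6% of all genes called, *Rnf122* (0.68) and *Cemip2* (0.45), and 3 rose without KI replicate 1, beside 17.4%. At PWK 28, 4 rose and 1 fell, beside 15.8% of all genes, with *Nkx6-2* at 0.57, *Cemip2* at 0.36, the deacetylase gene *Sirt2* at 0.25 and *Rap2a* at -0.22. In cortex at PWK 28 the focal adhesion gene *Tns3* alone fell, by 0.48, and no gene rose, and of 15 mature genes *Ermn* alone fell, by 0.46, each beside 22.2% of all genes called. At PWK 28 the KI effect was higher in hippocampus than in cortex for 3 of 15 genes of committed and newly formed cells, *Cemip2* (0.62), the kinase gene *Fyn* (0.41) and *Tns3* (0.40), for 2 of 15 mature genes, *Klk6* (2.07) and *Cldn11* (0.63), and for 2 of 15 further precursor markers, *Cspg5* (0.38) and *Ptprz1* (0.27), beside 4.57% of all genes called in either direction, and none of these lists held a gene called the other way.

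Signals that act on the lineage were called in both directions, in comparisons where 22.2% of all genes (cortex, PWK 28), 15.6% (hippocampus, PWK 14) and 15.8% (hippocampus, PWK 28) were called. Of 9 ligand genes, *Bdnf* and *Pdgfc* rose and the Notch ligand gene *Dll1* fell in 3 comparisons. In cortex at PWK 28, hippocampus at PWK 14 and hippocampus at PWK 28, in this order, *Bdnf* had log2 differences of 1.40, 1.73 and 1.09, and *Pdgfc*, a ligand of the receptor encoded by *Pdgfra*, of 0.49, 0.85 and 0.64. *Dll1* had -1.26, -1.18 and -0.68. In hippocampus at PWK 14 the list held 4 genes higher, *Shh* (1.01) among them, and without KI replicate 1 *Shh* was no longer called. Of 10 receptor genes, 1 rose and 3 fell in cortex at PWK 28, where the muscarinic receptor gene *Chrm1* and the neuregulin receptor gene *Erbb3* each fell by 0.53. In hippocampus 2 receptor genes rose and 1 fell at PWK 14, led by *Lingo1* (0.86), with 2 lower without KI replicate 1, where *Erbb3* had -0.37. At PWK 28, 2 rose, *Fgfr3* and *Gpr37l1*, both by 0.39. Summed counts of astrocyte genes were also higher in every KI than in every WT hippocampal library at PWK 28. The part of astrocytes and other cells in these calls was not tested.

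Of 11 further transcription factor genes of the lineage, 2 fell in cortex at PWK 28, where 22.2% of all genes were called, *Sox8* (-0.69), a relative of *Sox10*, and *Myt1* (-0.36), and none was called at PWK 14 in either region or in hippocampus at PWK 28. At PWK 28 the KI effect was higher in hippocampus than in cortex for 3 of them, beside 4.57% of all genes, *Sall1* (0.70), *Sox8* (0.63) and *Myt1* (0.50). A list of 7 genes tied to the restraint of differentiation was also compared. Some of these, such as *Axin2*, do not hold differentiation back themselves. In this list *Hes5*, a target of Notch signalling, fell at PWK 14, with log2 differences of -0.51 in cortex and -1.62 in hippocampus. *Id2* rose in hippocampus at both later ages (0.55 and 0.29). At PWK 14 in hippocampus this list held 2 genes higher and 3 lower, with and without KI replicate 1, beside 15.6% and 17.4% of all genes, and in cortex at PWK 28 it held 2 lower, *Id4* (-0.62) and *Axin2* (-0.39).

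Among libraries of a group, the genes of newly formed cells varied together and with mature oligodendrocytes. With each group mean taken off, Pearson's r over the 64 libraries was 0.90 between *Bcas1* and *Myrf*, 0.89 between *Bcas1* and *Enpp6* and 0.84 between *Enpp6* and *Myrf*. With the mean of 14 mature oligodendrocyte genes, r was 0.918 for *Enpp6*, 0.908 for *Bcas1*, 0.861 for *Myrf* and 0.668 for *Sox10*. It was 0.372 for *Olig1*, 0.240 for *Olig2*, 0.212 for *Pdgfra*, 0.188 for *Nkx2-2*, 0.116 for *Gpr17* and 0.0799 for *Cspg4*. These are descriptions across libraries that share their scaling and, between regions, their mice. Within a group the mature genes could differ widely, summing to 96168 to 165613 in WT cortex at PWK 14.

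**Figure D5:**
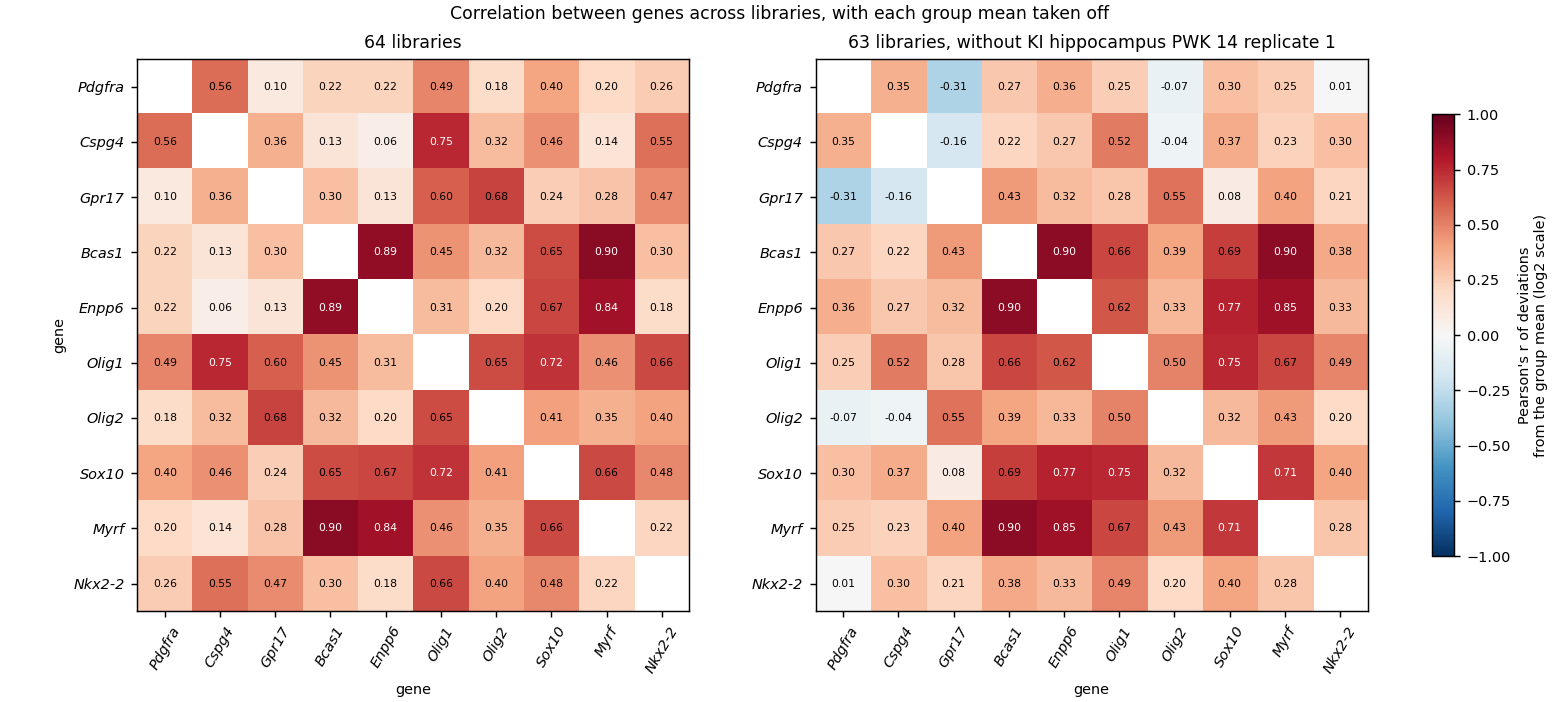
Pearson's r between each pair of the 10 genes (both axes) over libraries, after each group mean was taken off on the log2 scale, over all 64 libraries (left) and without the hippocampal KI replicate 1 of PWK 14 (right). The block of Bcas1, Enpp6 and Myrf holds 0.84 to 0.90 on the left, while Cspg4 with Olig1 falls from 0.75 to 0.52 and Gpr17 with Olig1 from 0.60 to 0.28 without that library.

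The correlations among precursor genes rested in part on 1 library. Without the hippocampal KI replicate 1 of PWK 14, r between *Cspg4* and *Olig1* was 0.52 in place of 0.75, between *Gpr17* and *Olig1* 0.28 in place of 0.60, and between *Pdgfra* and *Gpr17* -0.31 in place of 0.10. The values among *Bcas1*, *Enpp6* and *Myrf* were 0.85 to 0.90 without it.

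Of all 12819 genes with a mean of at least 100, the 3 most like *Bcas1* over the libraries included *Mag* (r = 0.914) and *Mbp* (0.907), and the 3 most like *Enpp6* included *Cnp* (0.906) and *Mbp* (0.896). *Myrf* was most like *Bcas1* (0.899) and *Mag* (0.874), and *Sox10* most like *Pllp* (0.834), *Rhog* (0.783) and *Gltp* (0.778). The genes most like *Gpr17* were *Plxdc2* (0.740), *Cx3cr1* (0.729) and *Gnai2* (0.70), and those most like *Olig1* were *Adgre1* (0.83), *Acsbg1* (0.791) and *Cx3cr1* (0.783). *Cx3cr1* and *Adgre1* are microglial genes, and without the hippocampal KI replicate 1 of PWK 14 the r of *Gpr17* with *Cx3cr1* was 0.478 and that of *Olig1* with *Adgre1* 0.643. Without it the r of *Cspg4* with *Tril* was 0.576, of *Nkx2-2* with *Cx3cr1* 0.497, of *Pdgfra* with *Sept2* 0.62 and of *Olig2* with *Rpl7* 0.58. *Cspg4* was most like *Tril* (0.808), *Lcp1* (0.792) and *Gja1* (0.787), *Pdgfra* most like *Sept2* (0.709), *Hadh* (0.678) and *Srgn* (0.654), *Olig2* most like *Jam3* (0.714), *Rpl7* (0.696) and *Gpr17* (0.680), and *Nkx2-2* most like *Nr2e1* (0.681), *Cx3cr1* (0.672) and *Jam2* (0.671).

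Over the 16 group means, other genes came closest. *Pdgfra* was closest to *Ptprz1* (r = 0.986), *Emp2* (0.985) and *Rpl5* (0.979), *Cspg4* to *Ptprz1* (0.978), *Emp2* (0.977) and *Pdgfra* (0.97), and *Olig2* to *Emp2* (0.987), *Eln* (0.987) and *Pcdhga1* (0.982). *Ptprz1*, a receptor phosphatase, is itself one of the 15 further precursor markers. *Gpr17* was closest to *Fzd9* (0.976), *Kdr* (0.976) and *Sept2* (0.974), and *Nkx2-2* to *Wwc2* (0.958), *Rpl10a-ps1* (0.951) and *Hnrnpul1* (0.941), of which the second is a ribosomal pseudogene whose reads may be shared with its parent. *Bcas1* was closest to *Myo1d* (0.994), *S1pr5* (0.992) and *Tmem63a* (0.992) and *Myrf* to *Cpox* (0.994), *Trf* (0.993) and *Tmem63a* (0.992). *Olig1* was closest to *Pcdhb18* (0.954), *Kctd15* (0.940) and *Klhl5* (0.937), *Sox10* to *Desi1* (0.923), *Myh11* (0.923) and *Mrpl10* (0.920), and *Enpp6* to *Heg1* (0.863), *Mcam* (0.863) and *9630013A20Rik* (0.857).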

How the data were processed

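RNA from 64 libraries was measured by stranded RNA sequencing. The deposited file is 1 table of normalized counts, a signal that the authors made from Salmon estimates on GRCm38 and scaled with the median-ratio factors of DESeq2, and it holds neither raw counts nor depth, so no counting interval was formed. Per the labels the authors used Salmon 0.11.2, R 3.6.0, DESeq2 1.19.11 and an mRNA kit, while their methods give other versions and a total RNA kit. Of the 18432 genes, 18420 matched the GENCODE annotation, which gave symbols and exon lengths.

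Values were fitted as log2(value + 1) with limma 3.58.1 in R 4.3.3, with a mean-variance trend, over genes with a mean of at least 1 in the groups compared, and p-values were adjusted over all genes tested by Benjamini-Hochberg. A gene was called at an adjusted p under 0.05, two-sided. Fold changes on this scale understate those of low genes. The code was tested on simulated data. Correlations used Python 3.11.15, pandas 2.3.3 and numpy 2.4.6.

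All 10 genes are named, and of each list at most 3 called genes per direction and comparison, those with the largest difference, besides *Sox6* and *Erbb3* without KI replicate 1, named after their values were seen. For each of the 10 genes the 3 most correlated genes were sought, of which 1 gene is not reported here. The 10 genes and the 15 lists of 128 gene symbols, of which 2 matched no row used here, were chosen with earlier results of these data known. Alternatives were pseudocounts of 0.5 and 5, no filter and a mean of 10, total-sum scaling, a correction for GC content and length, all libraries in 1 fit, sample quality weights, a replicate block and leaving out each library. Dropping 1 library from the correlations and the lists was chosen after seeing the data.

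Equal replicate numbers were not used to pair the samples in the main fits. Deviations from the group mean of same-numbered cortical and hippocampal libraries correlated at 0.140 on average, over 0.1 in 17 of 32 pairs. For different numbers the mean was -0.0461, and for same-numbered KI and WT libraries it was 0.0260. Deviations cancel within a group, so the mean for different numbers follows from that for equal numbers and is no separate reference. These values do not settle whether equal numbers mark 1 mouse.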

Additional observations from a re-analysis of the deposited data

Results flagged for a closer look

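In 7 of 160 sets of 4 libraries, 1 library lay far from the other 3 of its group by Dixon's test, which chance alone does in about 5% of sets. The hippocampal KI replicate 1 of PWK 14 was the highest of its group for *Gpr17*, at 6438 normalized counts, and for *Olig2*, at 879. The cortical KI replicate 1 of PWK 14 was the lowest for *Gpr17*, at 1126. The hippocampal KI replicate 2 of PWK 1 was the lowest for *Olig1*, at 3136, and for *Nkx2-2*, at 113. WT cortical replicate 1 of PWK 1 was the highest for *Sox10*, at 988, and WT cortical replicate 4 of PWK 14 the highest for *Nkx2-2*, at 158. The KI effect on *Olig1* at PWK 28 differed between the regions by 0.35 on the log2 scale in a test of the difference itself (limma adjusted p = 0.0328).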

How the results depend on the processing

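Of 41 called values of the 10 genes, 26 stayed called in every fit and 30 in every fit that left out 1 library, and none reversed. Of the values not called, 20 were called in some fit and 159 in none, and 69 of these changed sign in some fit.

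Total-sum scaling called 1 of the 10 genes between genotypes in cortex at PWK 28, 0 from PWK 14 to 28 in WT cortex, and 5, 5 and 2 between regions at PWK 1, 7 and 14. The correction for GC content and length called 0 from PWK 14 to 28 in WT cortex, 1 in hippocampus, and 2 between regions at PWK 14. One fit of all 64 libraries called 1 between genotypes in cortex and 0 in hippocampus at PWK 28, 1 from PWK 7 to 14 in WT cortex and 0 in hippocampus, 0 from PWK 14 to 28 in hippocampus, 1 and 3 between regions at PWK 7 and 28, and 0 for genotype by region at PWK 28. Sample quality weights called 0 from PWK 14 to 28 in WT cortex, 2 from PWK 7 to 14 in hippocampus, and 4, 5 and 2 between regions at PWK 1, 7 and 14. A replicate block called 1 between genotypes in cortex at PWK 28, 0 from PWK 14 to 28 in WT cortex, 2 from PWK 7 to 14 in hippocampus and 4 between regions at PWK 1. It ended the call of *Pdgfra* between regions at PWK 28 (adjusted p = 0.0565) and moved no other count by over 1.5 times.

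Leaving out single libraries gave 0 to 1 genes between genotypes in cortex and 0 to 2 in hippocampus at PWK 28. It gave 1 to 2 from PWK 7 to 14 in each region in WT mice, and 0 to 1 in cortex and 0 to 3 in hippocampus from PWK 14 to 28. Between regions it gave 2 to 5 at PWK 1 and at PWK 7, 1 to 5 at PWK 14 and 4 to 8 at PWK 28, and for genotype by region at PWK 28 it gave 0 to 2. Over all genes, genotype by age in cortex ranged from 0 to 914 calls across fits, the most with all 64 libraries in 1 fit. The causes were not tested. Depth per gene is unknown, and 4 libraries per group limit the precision, so differences not called are not shown to be absent.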
